A study of Mus musculus with 9 samples.

Results

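The enzymes that build, modify and sulfate glycosaminoglycan chains were followed in MSC2, a clonal line of mesenchymal stromal cells, as it was induced toward osteoblasts. Members were chosen by gene symbol: the xylosyltransferases (Xylt), the exostosin family (Ext, Extl), the heparan sulfate modification enzymes (Ndst, Glce, Hs2st, Hs3st, Hs6st), the Sulf endosulfatases, the chondroitin polymerases (Csgalnact, Chsy, Chpf), the dermatan epimerases (Dse, Dsel), the uronyl 2-O-sulfotransferase gene Ust and the carbohydrate sulfotransferases (Chst). This gave 44 genes, read by 47 probe sets, of 22180 genes compared. Of them 41 have 1 probe set and 3 (Chsy1, Chsy3 and Glce) have 2, which were averaged. Hs3st3a1, Chpf2 and Chst15 occur only on probe sets that the annotation pairs with several genes, and these probe sets were left out. Ndst1 was not analysed here.

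The cells came from bone marrow of 6-week-old C57BL/6 mice, and all arrays descend from 1 clone. There were 3 groups of 3 arrays, which the series text calls independent: undifferentiated cells, kept in alpha-MEM that lacked ascorbic acid, and confluent cells induced for 14 or 28 days in DMEM. The inducing medium held dexamethasone at 0.1 µM, a stable ascorbate phosphate at 0.2 mM, pyruvate at 1 mM and 10 mM of beta-glycerophosphate. All media held 10% serum. Effects of induction, medium, confluence and culture time cannot be told apart in this design.

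Glycosaminoglycans are long chains of alternating sugars attached to core proteins, and the whole molecule is a proteoglycan. A chain starts with a xylose on a serine of the core protein, is extended to a short linkage, and becomes heparan sulfate when an N-acetylglucosamine follows or chondroitin sulfate when an N-acetylgalactosamine follows. Epimerases then turn some glucuronic acids into iduronic acids, which makes dermatan sulfate from chondroitin, and sulfotransferases place sulfates at set positions. The sulfate pattern sets which growth factors, morphogens and chemokines a chain binds, and bone and cartilage matrix are rich in such chains.

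Values are log2 signals centred on each probe set's median over the 9 arrays. They compare groups for 1 gene, give no level, and cannot rank genes by abundance. Because the median is set to 0, the group in the middle often lies near 0. A higher value is taken as more RNA, and the dexamethasone-responsive chaperone gene Fkbp5 was 1.42 higher at 14 days. The gene-wise SD of the difference between arrays of 1 group ran from 0.103 to 0.146 over 9 pairs, and between groups from 0.171 to 0.552 over 27 pairs. The presence of marker genes cannot be checked in centred values, and their changes can. All 5 measured genes of dividing cells fell at both times, and the mean of these genes per array spanned 2.07 to 2.11 in undifferentiated cells, -0.043 to 0.021 at 14 days and -0.9955 to -0.91 at 28 days. Of 7 macrophage genes Cd14, Csf1r and Cd68 rose at both times while Ptprc, Adgre1, Lyz2 and Fcgr1 were not called, with list means of -0.72 to -0.58, -0.067 to 0.034 and 0.080 to 0.13 in the 3 groups. Of 5 endothelial genes 3 rose at 14 days and 4 at 28 days (list means -0.68 to -0.62, -0.0092 to 0.061 and 0.037 to 0.088), and 2 of 5 adipocyte genes rose at both times, with list means of -0.81 to -0.73, -0.059 to 0.027 and 0.041 to 0.15. Few genes carried these means. Median differences at 14 and 28 days were 0.045 and 0.035 (macrophage), 0.18 and 0.15 (endothelial) and 0.080 and 0.055 (adipocyte). The largest differences were 2.56 and 2.74, 1.91 and 1.91, and 3.50 and 3.63 in that order. Over all genes 18.2% were called up at 14 days and 20.4% at 28 days. Of 6 osteoblast genes 1 rose at each time, Alpl, and of 5 chondrocyte genes 1 rose at 14 days and 2 at 28 days. Of 9 stromal genes 3 rose and 2 fell at each time, among them Pdgfra at 1.27 and 1.42 and Cxcl12 at -0.87 and -0.92, with list means of -0.20 to -0.12, -0.016 to 0.031 and 0.025 to 0.053. The part of these markers in the results was not tested. In bulk RNA, fewer cells of a type and less RNA per cell cannot be told apart.

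After 14 days the set had changed in both directions. The steepest rises were those of Extl1, a transferase of the exostosin family, at 3.31-fold and Chst11, a chondroitin 4-O-sulfotransferase gene, at 3.27-fold. The steepest falls were those of Hs6st2, a heparan sulfate 6-O-sulfotransferase gene, which dropped 2.73-fold, and of Glce, the heparan sulfate epimerase gene, which dropped 2.14-fold. In all, 17 members rose and 8 fell, so that 25 of 44 (56.8%) were called at an adjusted p under 0.05 in limma. Over all genes 35.7% were called, 18.2% up and 17.5% down. The median difference of the members was 0.062, against 0.0048 over all genes. In 28 members no array of 1 group overlapped the other, against 44.8% of all genes, and 4 called members differed at least 2-fold, against 4.71%.

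After 28 days 19 members stood higher and 8 lower than in undifferentiated cells, 27 of 44 (61.4%), against 39.9% of all genes (20.4% up and 19.5% down). Extl1 had reached 4.98-fold and Hs6st2 was 4.62-fold lower. The median difference was 0.13, against 0.017 over all genes. The groups were free of overlap in 30 members, against 46.6% of all genes. The 6 called members at 2-fold or more, against 6.19% of all genes, were Extl1, Chst11, Hs3st1 and Hs6st1 upward and Hs6st2 and Glce downward. An F test over the 3 groups called 26 members, against 39.2% of all genes. Both comparisons use the same undifferentiated arrays. limma's test against a 1.5-fold change called 8 members at 14 days, against 7.13% of all genes, and 8 at 28 days, against 9.06%. When the centred arrays were quantile-normalized again, which forces 1 spread on all of them, many differences from undifferentiated cells shrank, and those that lost their call or moved over 1.5 times are given with each gene. Beside an adjusted p under such a setting, 'alternatives' gives the lowest and highest adjusted p of that comparison over all settings tried, the 1.5-fold test included. Over the 3 comparisons the 1.5-fold test ended 41 of 57 calls on members, also of genes for which no such range is printed. Intervals of 95% are not adjusted for the number of genes.

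**Figure D1:**
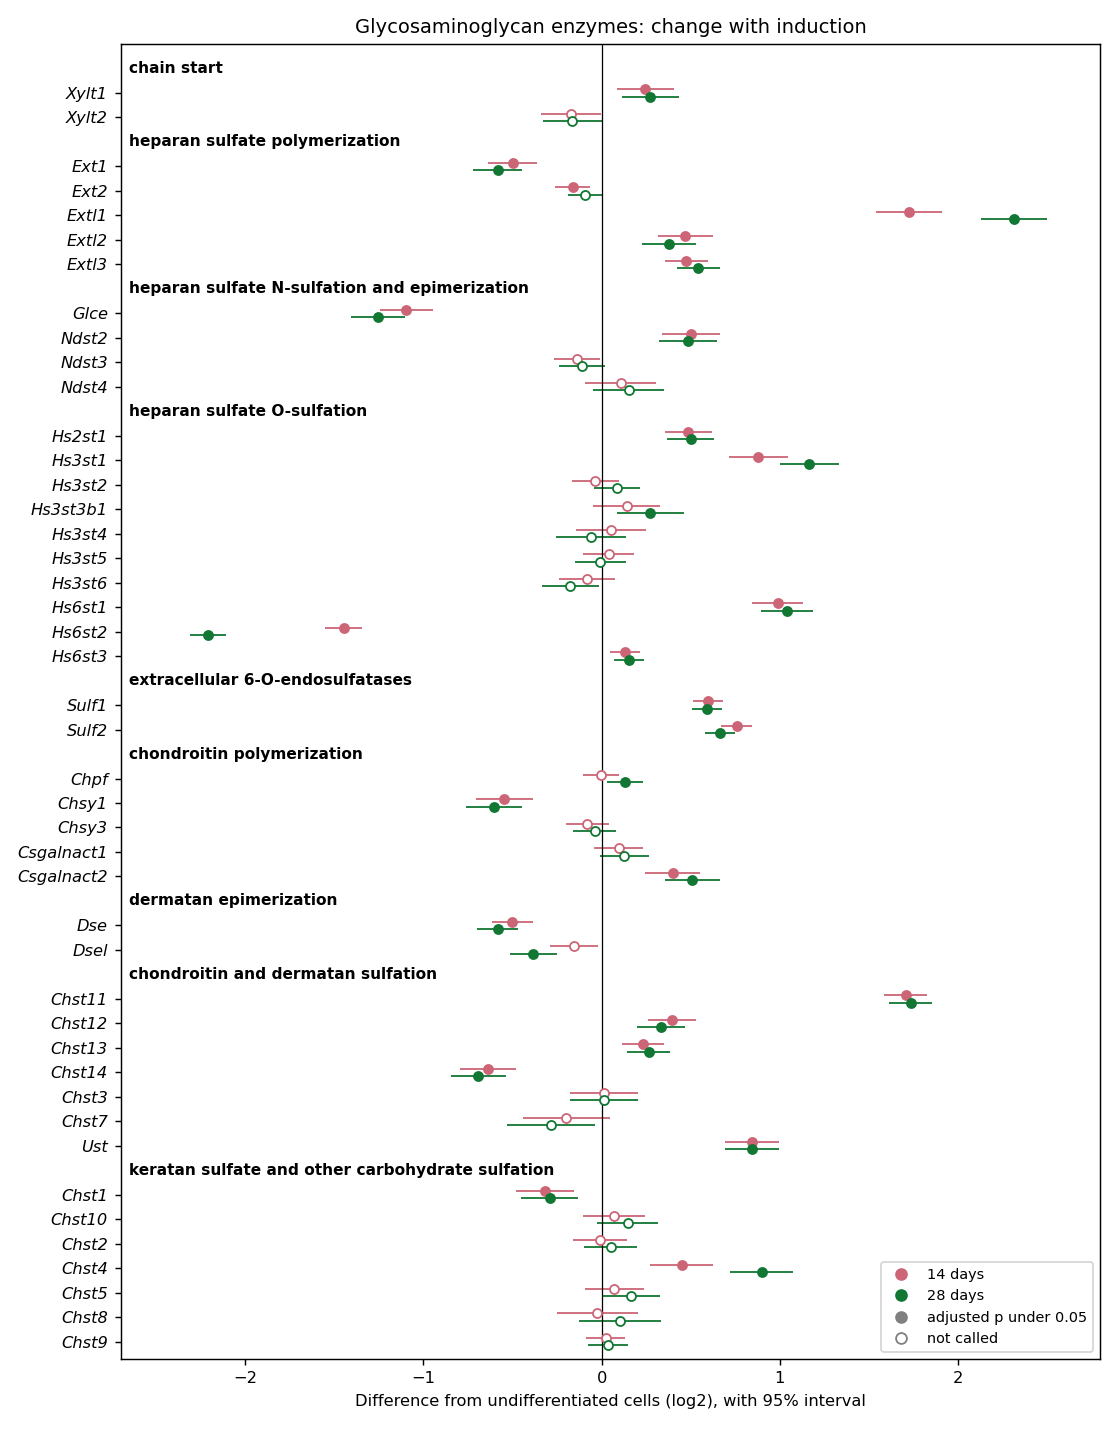
Difference from undifferentiated cells in log2 units for the 44 enzymes, grouped by role, at 14 days (red) and 28 days (green), with the 95% interval of the limma fit (n = 3 arrays a group). Filled circles passed an adjusted p of 0.05. Extl1 and Chst11 lie farthest to the right and Hs6st2 and Glce farthest to the left, while Ndst3, Ndst4, Hs3st2, Hs3st4, Hs3st5, Chst2, Chst3, Chst8, Chst9 and Chst10 are among those not called.

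The promoters of the members that rose or fell most, and of Hs6st1, which moved opposite to Hs6st2, are shown as the 250 bases before the RefSeq start in build GRCm38.p6, 5′ to 3′ on the gene's strand. Capitals mark matches on either strand to any of 7 short motifs. These were the half-site of the glucocorticoid receptor, AGAACA, an E-box, CACGTG, the core of Runt-domain factors, TGTGGT, and a GC box, GGGCGG, along with the box named CCAAT, the TATA box, TATAAA, and the AP-1 site, TGACTCA. None of the 7 contains another. For Hs6st2, with 2 listed starts, the upstream one is shown. Extl1 lies at chr4:134372548-134372797, minus strand. Chst11 lies at chr10:82985247-82985496, plus strand. Hs6st1 lies at chr1:36068150-36068399, plus strand. Hs6st2 lies at chrX:51681603-51681852, minus strand. Glce lies at chr9:62122610-62122859, minus strand.
Extl1: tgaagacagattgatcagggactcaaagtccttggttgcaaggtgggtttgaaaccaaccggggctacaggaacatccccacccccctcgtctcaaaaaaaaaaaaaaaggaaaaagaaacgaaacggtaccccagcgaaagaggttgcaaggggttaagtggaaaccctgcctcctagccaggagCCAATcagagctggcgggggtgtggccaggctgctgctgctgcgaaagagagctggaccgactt
Chst11: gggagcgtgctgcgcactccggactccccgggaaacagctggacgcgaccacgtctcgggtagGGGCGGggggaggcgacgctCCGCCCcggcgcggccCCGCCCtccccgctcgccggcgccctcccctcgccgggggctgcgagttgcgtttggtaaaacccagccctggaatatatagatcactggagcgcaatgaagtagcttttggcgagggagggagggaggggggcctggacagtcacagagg
Hs6st1: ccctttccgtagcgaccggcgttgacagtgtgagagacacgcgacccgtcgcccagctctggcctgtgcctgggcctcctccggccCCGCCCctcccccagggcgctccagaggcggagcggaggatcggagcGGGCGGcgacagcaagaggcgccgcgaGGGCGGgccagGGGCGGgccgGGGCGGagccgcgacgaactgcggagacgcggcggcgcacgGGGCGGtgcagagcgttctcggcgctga
Hs6st2: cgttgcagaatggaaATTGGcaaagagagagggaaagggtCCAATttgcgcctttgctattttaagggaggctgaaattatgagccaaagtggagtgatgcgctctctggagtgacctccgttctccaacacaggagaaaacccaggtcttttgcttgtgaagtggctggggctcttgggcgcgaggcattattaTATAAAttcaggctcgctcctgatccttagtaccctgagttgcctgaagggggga
Glce: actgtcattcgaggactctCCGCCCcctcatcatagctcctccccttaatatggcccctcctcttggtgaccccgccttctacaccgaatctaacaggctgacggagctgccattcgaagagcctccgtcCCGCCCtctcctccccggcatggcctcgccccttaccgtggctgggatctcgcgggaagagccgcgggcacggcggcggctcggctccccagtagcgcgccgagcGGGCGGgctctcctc

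The promoters of the 3 genes of 6-O-sulfotransferases differ in these letters. Hs6st1 holds 6 GC boxes and 37 CG dinucleotides in 250 bases. Hs6st2 holds no GC box at its upstream start, but 2 CCAAT boxes and 1 TATAAA, with 7 CG dinucleotides. At its second start (chrX:51680478-51680727) none of the 7 motifs was found, and CG dinucleotides number 26. Hs6st3, which was called up by small amounts, also holds none of the 7 motifs, with 36 CG dinucleotides. Chst11, which rose, and Glce, which fell, each hold 3 GC boxes, and Extl1 holds 1 CCAAT box. Of the 44 members 35 had a RefSeq window, 40 windows in all. A GC box was found in 26 of the 40 windows (65.0%), against 32.7% of all 32851 windows and 42.6% of the 21263 windows of protein-coding genes. The median GC content was 64.8% in member windows, 52.4% in all and 55.6% in those of coding genes. CCAAT was found in 40.0% of member windows, 33.8% of all and 35.4% of those of coding genes, and CACGTG in 10.0%, 6.0% and 6.6%. In the same order, AGAACA was found in 5.0% (2 member windows), 16.1% and 13.7%, and TGTGGT in 5.0% (2), 14.0% and 12.4%. TATAAA was found in 5.0% (2), 12.4% and 11.6%, and TGACTCA in 2.5% (1), 4.5% and 4.1%. A match is a run of letters and shows no binding.

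The first sugar of every heparan and chondroitin sulfate chain is set by Xylt1 or Xylt2. Xylt1 rose slightly: it stood at -0.23, -0.084 and -0.25 in undifferentiated cells, at 0, 0.15 and 0.014 after 14 days and at 0.031, 0.22 and 0 after 28 days. The difference was 0.24 at 14 days (SE 0.072, limma adjusted p = 0.0216) and 0.27 at 28 days (SE 0.072, limma adjusted p = 0.0111). Leaving out any of 3 arrays (undifferentiated replicate 1, undifferentiated replicate 3 or day-14 replicate 2) ended the 14-day call (adjusted p 0.074 to 0.09), and under renewed quantile normalization neither call held (0.122 at 14 and 0.151 at 28 days; alternatives 0.00161 to 1 and 0.000753 to 1). Xylt2 was not called, with -0.17 and -0.16 and 95% intervals of -0.34 to -0.0056 and -0.33 to 0.0025. Of the 5 genes of the linkage region that follows the xylose, 3 rose at both times and the other two were not called, with a median of 0.22 and 0.27. They were Pxylp1, which encodes the phosphatase that removes the xylose phosphate, at 0.54 and 0.45, the galactosyltransferase gene B4galt7 at 0.35 and 0.32, and the glucuronyltransferase gene B3gat3 at 0.22 and 0.27. Renewed quantile normalization left 2 of these called at 14 days and 1, Pxylp1 at 0.26, at 28 days.

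The 5 exostosin genes split by kind. Ext1, whose product forms the heparan sulfate polymerase together with that of Ext2, fell at both times and Ext2 at 14 days, while the 3 exostosin-like genes rose at both times. Extl1 stood at -1.84, -1.66 and -1.69 in the undifferentiated arrays, at 0, -0.14 and 0.14 at 14 days and at 0.51, 0.55 and 0.71 at 28 days. The 3 groups did not overlap, and the undifferentiated arrays lay far under all others. Extl1 rose by 1.73 by 14 days (SE 0.082, limma adjusted p = 6e-08) and by 2.32 by 28 days (SE 0.082, limma adjusted p = 4.83e-09). Extl3, which encodes the transferase that adds the first N-acetylglucosamine and so commits a chain to heparan sulfate, stood at -0.43, -0.40 and -0.60, then at -0.032, 0 and 0.027 and at 0.045, 0.091 and 0.061. All 6 induced arrays lay above the undifferentiated ones, by 0.48 on average at 14 days (SE 0.054, limma adjusted p = 4.1e-05) and 0.54 at 28 days (SE 0.054, limma adjusted p = 1.25e-05). Extl2, a transferase that can cap the linkage region, rose by 0.47 (SE 0.068, limma adjusted p = 0.000262) and by 0.38 (SE 0.068, limma adjusted p = 0.0011).

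Ext1 went the other way, with 0.61, 0.47 and 0.42 in undifferentiated cells, -0.00094, 0.062 and -0.056 at 14 days and 0, -0.098 and -0.15 at 28 days. No induced array reached the undifferentiated ones, and Ext1 fell by 0.50 (SE 0.062, limma adjusted p = 8.43e-05) and by 0.58 (SE 0.062, limma adjusted p = 2.15e-05) on the log2 scale. Its partner Ext2 fell at 14 days only by a small amount, with a difference of -0.16 (SE 0.044, limma adjusted p = 0.0149), a call that leaving out undifferentiated replicate 3, day-14 replicate 2 or day-14 replicate 3 ended (adjusted p 0.0543 to 0.0612; alternatives 0.011 to 1). At 28 days Ext2 was not called (-0.091, 95% interval -0.19 to 0.0074), and the difference between its times was not called either (0.071, limma adjusted p = 0.429). After renewed quantile normalization the differences were 0.87 for Extl1 and -0.28 for Ext1 at 14 days, -0.39 for Ext1 at 28 days, and 0.29 and 0.35 for Extl3, all still called.

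The first modifications of a heparan sulfate chain moved apart. Glce, which encodes the C5-epimerase that makes iduronic acid and so a flexible, highly sulfated chain, stood at 1.18, 1.03 and 0.97 before induction, at -0.11, 0 and -0.0022 at 14 days and at -0.20, -0.29 and -0.10 at 28 days. The lowest undifferentiated array lay far above the highest induced one. Glce fell 2.14-fold by 14 days (log2 -1.10, SE 0.067, limma adjusted p = 4.03e-07) and 2.39-fold by 28 days (log2 -1.26, SE 0.067, limma adjusted p = 1.1e-07). Its probe sets moved the same way, at -1.58 and -0.93 at 28 days. After renewed quantile normalization the 14-day difference was -0.62.

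Ndst2, which encodes an N-deacetylase and N-sulfotransferase that acts before the epimerase, rose instead. It stood at -0.45, -0.45 and -0.27 in undifferentiated arrays, at 0, 0.19 and 0.15 at 14 days and at 0.17, -0.019 and 0.14 at 28 days, with no overlap between the undifferentiated and the induced arrays. The differences were 0.50 (SE 0.073, limma adjusted p = 0.000267) and 0.49 (SE 0.073, limma adjusted p = 0.000286). Its relatives Ndst3 and Ndst4 were not called, with -0.14 and 0.11 at 14 days and -0.11 and 0.15 at 28 days.

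The 6-O-sulfotransferase genes, whose products add sulfate at carbon 6 of glucosamine, moved in opposite directions within their family. Hs6st1 stood at -0.98, -1.03 and -0.84 in undifferentiated cells, at 0.0019, 0 and 0.11 after 14 days and at -0.015, 0.12 and 0.16 after 28 days. It rose 1.98-fold by 14 days (log2 0.99, SE 0.065, limma adjusted p = 6.88e-07), and the 2 induced groups overlapped. Hs6st2 stood at 1.499, 1.46 and 1.40, then at 0.024, 0 and -0.010 and last at -0.75, -0.70 and -0.82. The 3 groups of Hs6st2 arrays were all apart, in falling order with time. Its differences from undifferentiated cells were -1.45 (SE 0.046, limma adjusted p = 2.91e-09) and -2.21 (SE 0.046, limma adjusted p = 1.04e-10). For Hs6st1 the 28-day difference was 1.04 (SE 0.065, limma adjusted p = 3.61e-07). The promoter windows of this pair are those compared above. Hs6st3 differed by only 0.13 and 0.15, and its 14-day call (limma adjusted p = 0.0185) ended when any of 4 arrays was left out, undifferentiated replicate 1, undifferentiated replicate 3, day-14 replicate 2 or day-14 replicate 3 (adjusted p 0.0537 to 0.0567). After renewed quantile normalization neither Hs6st3 call held (0.135 and 0.0591; alternatives 0.0163 to 1 and 0.00717 to 1), and its 14-day value was 0.086. Under that setting Hs6st1 was at 0.59 and 0.61 and Hs6st2 at -0.74 at 14 days, all called.

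The remaining O-sulfotransferases of heparan sulfate act on other positions. Hs2st1, which sulfates the iduronic acid that the epimerase makes, stood at -0.33, -0.54 and -0.47, at 0.046, -0.016 and 0.091 at 14 days and at 0.083, 0.083 and 0 at 28 days. It rose by 0.49 (SE 0.059, limma adjusted p = 7.15e-05) and by 0.50 (SE 0.059, limma adjusted p = 4.82e-05), while Glce fell. Hs3st1, whose product completes the antithrombin-binding site of heparan sulfate, stood at -0.90, -0.99 and -0.80 before induction. It reached 0, -0.049 and 0 at 14 days and 0.27, 0.12 and 0.42 at 28 days, 3 groups without overlap. The rise was 1.84-fold by 14 days (log2 0.88, SE 0.074, limma adjusted p = 4.53e-06) and 2.24-fold by 28 days (log2 1.16, SE 0.074, limma adjusted p = 4.14e-07). Among the other 3-O-sulfotransferase genes Hs3st2, Hs3st4, Hs3st5 and Hs3st6 were not called at either time, with differences from -0.18 to 0.087. Hs3st3b1 was called at 28 days, with 0.27 (SE 0.085, limma adjusted p = 0.0258). Hs3st3a1 is a close copy of it, and whether the probes read both was not tested. Hs3st3b1 was not called when undifferentiated replicate 1, undifferentiated replicate 2 or day-28 replicate 2 was left out (adjusted p 0.0728 to 0.0993), nor under renewed quantile normalization (0.192; alternatives 0.00526 to 1). Renewed quantile normalization put Hs3st1 at 0.46 at 14 days and Hs2st1 at 0.32 at 28 days, both called.

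Sulf1 and Sulf2 encode secreted enzymes that remove 6-O-sulfates from finished chains, and both rose. Sulf1 stood at -0.56, -0.57 and -0.61 in undifferentiated cells, at -0.018, 0.044 and 0.028 at 14 days and at 0.0020, 0.029 and 0 at 28 days. Sulf2 stood at -0.65, -0.70 and -0.66, at 0.061, 0.087 and 0.12 and at -0.028, 0.018 and 0 in the same order. All induced arrays were above all undifferentiated ones for both genes. Sulf1 rose by 0.60 (SE 0.038, limma adjusted p = 5.57e-07) and 0.59 (SE 0.038, limma adjusted p = 4.8e-07), which is 1.51-fold and 1.51-fold. Sulf2 rose 1.69-fold by 14 days (log2 0.76, SE 0.039, limma adjusted p = 9.63e-08) and 1.58-fold by 28 days (log2 0.66, SE 0.039, limma adjusted p = 1.99e-07). The spread of both genes was small, with SDs of at most 0.032 within a group. After renewed quantile normalization Sulf1 was at 0.37 and 0.34 and Sulf2 at 0.37 at 28 days, still called.

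**Figure D2:**
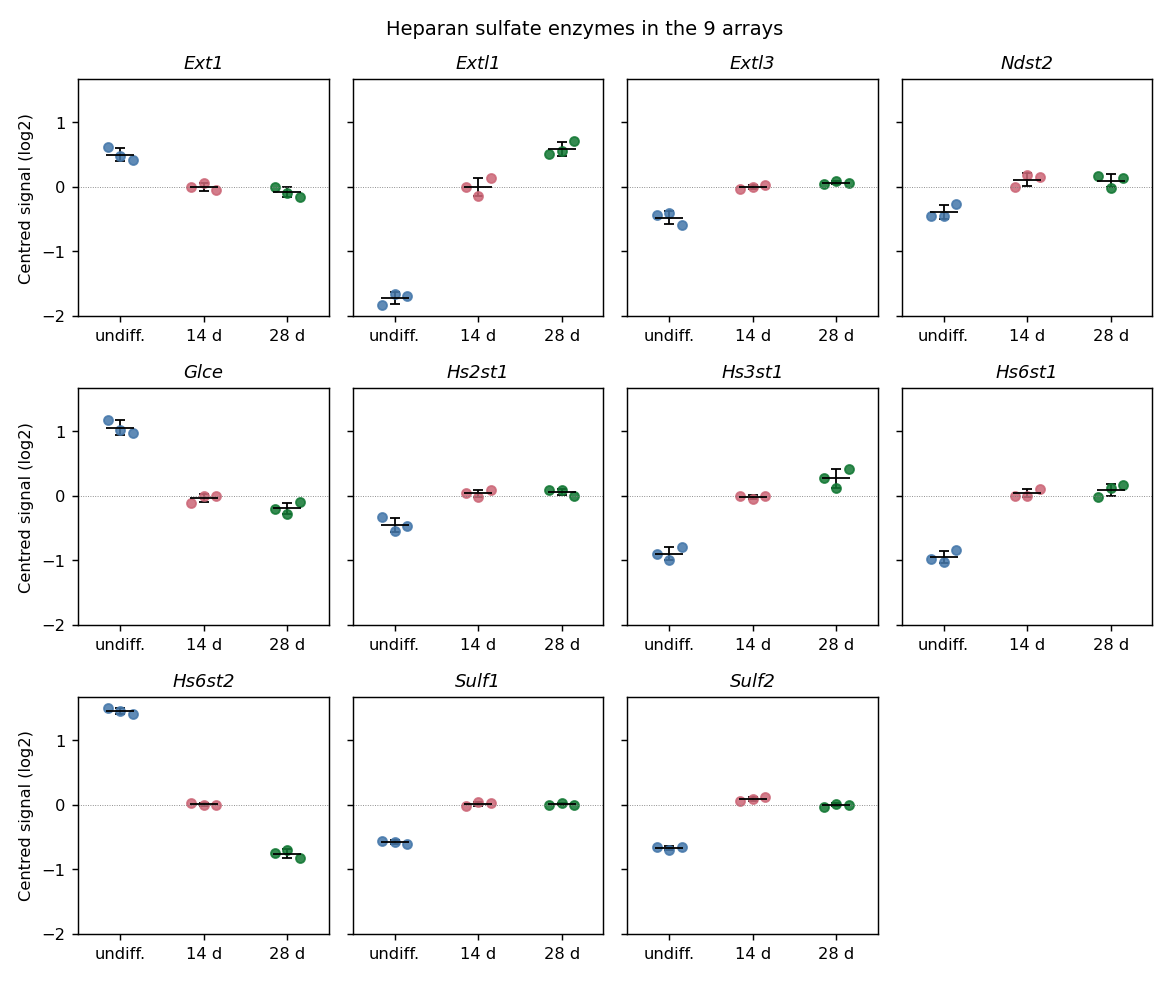
Centred log2 signal of 11 heparan sulfate enzyme genes in each of the 9 arrays, by group, with the group mean (bar) and SD (error bar, n = 3). Hs6st2, Glce and Ext1 are highest in undifferentiated cells (blue), the other 8 are lowest there, and Extl1, Hs3st1 and Hs6st2 differ between 14 days (red) and 28 days (green).

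On the chondroitin side the genes of chain growth also split. Csgalnact2, which adds the N-acetylgalactosamine that commits a chain to chondroitin, stood at -0.39, -0.34 and -0.42 before induction, at -0.0086, 0.0087 and 0.047 at 14 days and at 0.30, 0.076 and 0 at 28 days. It rose by 0.40 (SE 0.070, limma adjusted p = 0.000983) and by 0.51 (SE 0.070, limma adjusted p = 0.000153), with no overlap, and renewed quantile normalization ended the 14-day call (adjusted p = 0.0891; alternatives 6.34e-05 to 1). Its relative Csgalnact1 was not called (0.097 and 0.13). Chsy1, a chondroitin polymerase gene, stood at 0.63, 0.38 and 0.45, at -0.17, 0.015 and -0.016 and at -0.15, -0.13 and -0.074 in the 3 groups. It fell by 0.55 (SE 0.071, limma adjusted p = 0.000121) and by 0.60 (SE 0.071, limma adjusted p = 4.85e-05) on the log2 scale, and all undifferentiated arrays lay above all others. Chsy3 was not called, and its probe sets disagreed in sign at 14 days (-0.25 and 0.087) and at 28 days (-0.25 and 0.17). The value of Chsy3 thus averages opposite readings and does not show that it was unchanged. Chpf, a polymerizing factor that works with the products of Chsy1 and Chsy3, was at -0.0051 at 14 days and 0.13 at 28 days (SE 0.045, limma adjusted p = 0.0404). This small difference was not called when any of 5 arrays was left out, namely the 3 undifferentiated ones, replicate 2 at 14 days and replicate 1 at 28 days (adjusted p 0.0599 to 0.13), in a fit of these 2 groups alone (0.0565), or under renewed quantile normalization (0.126), and its adjusted p spanned 0.0374 to 1 under the alternatives.

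Both dermatan epimerase genes stood lower after 28 days. Dse was at 0.47, 0.47 and 0.50 in undifferentiated arrays, at 0, -0.018 and -0.043 at 14 days and at -0.13, -0.18 and 0.0093 at 28 days. The undifferentiated arrays lay close together and above every induced array. Dse fell by 0.50 (SE 0.051, limma adjusted p = 1.94e-05) and by 0.58 (SE 0.051, limma adjusted p = 5.04e-06) on the log2 scale. Dsel, its relative, was not called at 14 days (-0.16, 95% interval -0.29 to -0.023) and was at -0.38 at 28 days (SE 0.059, limma adjusted p = 0.000373). Chst14, which encodes the 4-O-sulfotransferase of dermatan sulfate, fell as well. It stood at 0.52, 0.67 and 0.56, at 0, -0.14 and -0.029 and at -0.21, -0.14 and 0.028, without overlap between undifferentiated and induced arrays. Chst14 was 1.56-fold lower at 14 days (log2 -0.64, SE 0.070, limma adjusted p = 3.24e-05) and 1.61-fold lower at 28 days (log2 -0.69, SE 0.070, limma adjusted p = 1.46e-05). Renewed quantile normalization put Dse at -0.32 at 14 days, still called.

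The 4-O-sulfotransferase genes of chondroitin rose while that of dermatan fell. Chst11 stood at -1.78, -1.66 and -1.61 in undifferentiated cells, at 0.038, 0.065 and -0.039 at 14 days and at 0.085, 0 and 0.060 at 28 days. The induced groups overlapped and lay far above the undifferentiated arrays. Chst11 rose by 1.71 (SE 0.054, limma adjusted p = 2.91e-09) and by 1.73 (SE 0.054, limma adjusted p = 1.73e-09), which is 3.33-fold at 28 days. Chst12 and Chst13, which encode enzymes for the same position, rose less, by 0.39 and 0.23 at 14 days (limma adjusted p = 0.000393 and 0.00568) and by 0.33 and 0.26 at 28 days (limma adjusted p = 0.00112 and 0.00232). Ust, which encodes the 2-O-sulfotransferase of uronic acids in chondroitin and dermatan sulfate, stood at -0.70, -0.93 and -0.76, at 0.052, 0.0054 and 0.071 and at -0.027, 0.16 and 0. It rose 1.79-fold by 14 days (log2 0.84, SE 0.068, limma adjusted p = 3.27e-06) and was at 0.85 at 28 days (SE 0.068, limma adjusted p = 2.63e-06). The genes of chondroitin 6-O-sulfation, Chst3 and Chst7, were not called. Chst3 held exactly 0 in all 3 undifferentiated arrays and differed by 0.014 and 0.012, with a 95% interval of -0.18 to 0.20 at 28 days. Chst7 varied more, from -0.020 to 0.41 among undifferentiated arrays, and its 28-day difference of -0.28 had an interval of -0.53 to -0.038. After renewed quantile normalization Chst11 was at 0.90 and 0.91, Ust at 0.52 and 0.49 and Chst12 at 0.20 at 28 days, all called.

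Of the 7 genes for sulfation of keratan sulfate and of other glycans, Chst4 rose, Chst1 fell and 5 were not called at either time. Chst4, which encodes an N-acetylglucosamine 6-O-sulfotransferase best known from ligands of L-selectin, stood at -0.59, -0.56 and -0.24 in undifferentiated cells, at -0.029, 0 and 0 at 14 days and at 0.42, 0.46 and 0.43 at 28 days. Its 3 groups did not overlap, and undifferentiated replicate 3 lay above the other two of its group. Chst4 rose by 0.45 (SE 0.079, limma adjusted p = 0.00103) and by 0.90 (SE 0.079, limma adjusted p = 5.24e-06). Chst1, the keratan sulfate galactose 6-O-sulfotransferase gene, fell by 0.32 (SE 0.072, limma adjusted p = 0.00501) and 0.29 (SE 0.072, limma adjusted p = 0.00756), and neither call held under renewed quantile normalization (0.0535 and 0.192; alternatives 0.0032 to 1 and 0.00474 to 1). That setting put Chst4 at 0.25 at 14 days, still called. Chst2, Chst5, Chst8, Chst9 and Chst10 lay between -0.024 and 0.16 in both comparisons. Chst8 and Chst9 encode sulfotransferases of glycoprotein hormones, and Chst10 that of the HNK-1 epitope of neural cells.

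**Figure D3:**
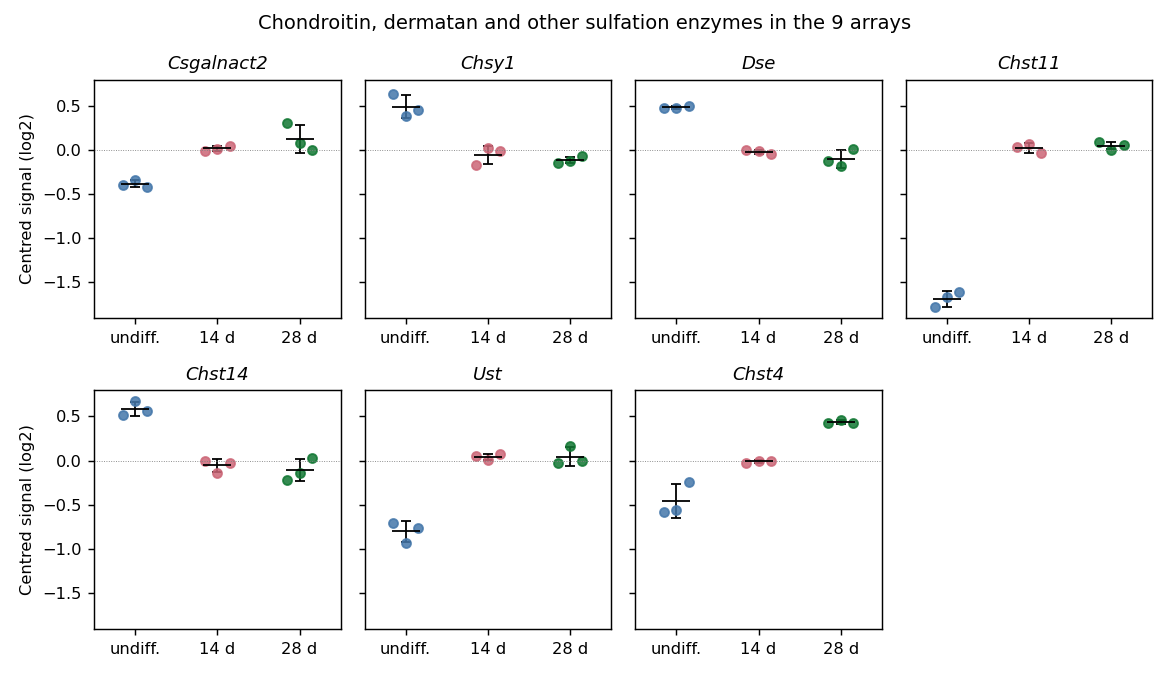
Centred log2 signal of 7 genes of chondroitin and dermatan sulfate synthesis and of other glycan sulfation in each of the 9 arrays, by group, with the group mean (bar) and SD (error bar, n = 3). Chsy1, Dse and Chst14 are highest in undifferentiated cells (blue), Csgalnact2, Chst11, Ust and Chst4 are lowest there, and Chst4 differs between 14 days (red) and 28 days (green).

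Between 14 and 28 days few members changed. Extl1, Chst4 and Hs3st1 rose further and Hs6st2 and Dsel fell further, 5 of 44 (11.4%), against 7.39% of all genes (2.72% up and 4.67% down). Arrays of both times did not overlap in 9 members, against 24.4% of all genes. Hs6st2 changed most, by -0.76 (SE 0.046, limma adjusted p = 1.13e-05), which is 1.69-fold lower. Extl1 gained 1.51-fold more (log2 0.59, SE 0.082, limma adjusted p = 0.00185) and Chst4 1.36-fold more (log2 0.45, SE 0.079, limma adjusted p = 0.00728). After renewed quantile normalization these differences were larger, at -1.26 for Hs6st2, 0.93 for Extl1 and 0.69 for Chst4. Hs3st1 was at 0.29 (SE 0.074, limma adjusted p = 0.0468), and 7 of the 9 arrays each ended the call when left out, all but undifferentiated replicate 3 and day-28 replicate 2 (adjusted p 0.0504 to 0.145), as did a fit of these 2 groups alone (0.0723), and its adjusted p spanned 0.0164 to 1 under the alternatives. Dsel was at -0.23 (SE 0.059, limma adjusted p = 0.0475), and again 7 arrays each ended the call when left out, all but undifferentiated replicates 1 and 2 (adjusted p 0.0585 to 0.153), as did robust variances (0.0501), and its adjusted p spanned 0.0113 to 1 under the alternatives. The other 39 members were not called, with a largest absolute difference of 0.16, that of Glce. The probe sets averaged for Glce were at -0.31 and -0.0058 between the times. Chst11, Ust and Sulf1, which had risen by 14 days, differed between the times by 0.027, 0.0023 and -0.0074, with 95% intervals of -0.093 to 0.15, -0.15 to 0.15 and -0.093 to 0.078.

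Outside the 44 enzymes, 61 other genes of the pathway were measured in 6 lists, and 26 rose and 12 fell at 14 days (62.3%, against 35.7% of all genes) and 27 rose and 16 fell at 28 days (70.5%, against 39.9%). Of 15 genes for sulfate and sugar donors 3 rose and 5 fell at 14 days, and 2 rose and 7 fell at 28 days (medians -0.066 and -0.16). Papss2, which encodes a synthase of PAPS, the sulfate donor of all these sulfotransferases, stood at 0.97, 0.85 and 0.83 in undifferentiated cells, at -0.15, 0 and 0 at 14 days and at -0.37, -0.21 and -0.25 at 28 days. Papss2 was at -0.93 (SE 0.063, limma adjusted p = 8.68e-07) and -1.16 (SE 0.063, limma adjusted p = 1.26e-07), while Papss1 was not called (0.015 and -0.10). Ugdh, whose product makes UDP-glucuronic acid, was at -0.47 and -0.62, and Gfpt2, of the hexosamine route, at -0.52 and -0.88. Slc35b2, the Golgi PAPS transporter gene, rose by 0.20 and 0.32 and the sulfate transporter gene Slc26a2 by 0.24 and 0.23. Renewed quantile normalization left 1 donor gene up at each time, 4 down at 14 days and 5 at 28 days, with Papss2 at -0.56, Ugdh at -0.27 and Gfpt2 at -0.32 at 14 days.

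The core proteins that carry the chains moved in both directions. Of 13 heparan sulfate core protein genes 5 rose and 5 fell at each time. Gpc3, which encodes the membrane-anchored glypican 3, stood at -3.06, -3.27 and -3.25 before induction, at 0.083, -0.0051 and 0 at 14 days and at 1.10, 1.22 and 1.03 at 28 days. It rose by 3.22 (SE 0.067, limma adjusted p = 2.74e-10) and by 4.31 (SE 0.067, limma adjusted p = 3.1e-11), while its relative Gpc6 was at -1.59 and -1.70. The basement membrane genes Agrn and Col18a1 rose by 0.62 and 0.74 at 28 days, and Hspg2, the perlecan gene, was at -0.58. Of 12 chondroitin and dermatan sulfate core protein genes 3 rose and 2 fell at 14 days and 4 rose and 3 fell at 28 days. The decorin gene Dcn was at 0.87 and 0.97, the NG2 gene Cspg4 at 1.26 and 0.89, and the serglycin gene Srgn at 1.39 at 28 days. Falls at 28 days were Ptprz1 at -0.59, Smc3, which also encodes a cohesin subunit, at -0.50 and the versican gene Vcan at -0.42. Under renewed quantile normalization 2 heparan sulfate core protein genes rose at 14 days and the falls of Ptprz1 and Smc3 then were not called (adjusted p = 0.0681 and 0.182), Gpc3 was at 1.61 at 14 days, Gpc6 at -0.79 and -0.93, Dcn at 0.48 and 0.58, and Agrn and Cspg4 at 0.40 and 0.47 at 28 days.

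Genes that break chains down in the lysosome rose in 10 of 12 at 14 days, and in 9 of 12 at 28 days, with Gusb at -0.19 (limma adjusted p = 0.0408), a call that leaving out any of 5 arrays ended, namely undifferentiated replicates 2 and 3, day-14 replicate 3 and day-28 replicates 2 and 3 (adjusted p 0.0525 to 0.144). Their median was 0.56 at 14 days and 0.59 at 28 days, against 0.0048 and 0.017 over all genes. Among the rises, Hyal2 at 14 days was small (0.14, limma adjusted p = 0.0488). Its call ended without undifferentiated replicate 2 or 3, any day-14 array or day-28 replicate 2 (adjusted p 0.0617 to 0.155). It also ended with the most variable probe set or robust variances (0.0504 each) and with the replicate block (0.0835). Arsb at 28 days (0.17, limma adjusted p = 0.0227) was not called without undifferentiated replicate 2 (0.0813) or day-28 replicate 3 (0.0777). Naglu and Sgsh, whose products remove N-acetylglucosamine and the sulfate of N-sulfated glucosamine from heparan sulfate, rose by 1.78 and 1.07 at 14 days and by 1.68 and 1.06 at 28 days. Hexa, a hexosaminidase subunit gene, rose by 1.20 and 1.10. Of 4 genes for the keratan sulfate backbone 2 rose at 14 days and 4 at 28 days, led by the galactosyltransferase gene B4galt4 at 0.59 and 0.74. The 28-day rise of B3gnt7 (0.26, limma adjusted p = 0.0138) was not called without undifferentiated replicate 1, day-28 replicate 2 or day-28 replicate 3 (adjusted p 0.0516 to 0.0573). Under renewed quantile normalization 9 lysosomal genes rose at 14 days and 8 at 28 days, with Naglu at 1.10 and 0.85, Sgsh at 0.64 and 0.59 and Hexa at 0.79 and 0.59, and B4galt4 was at 0.33 at 14 days. That setting ended the 28-day call of B4galt1 (0.14, limma adjusted p = 0.0512). Between 14 and 28 days 4 of the 61 genes rose and 5 fell (14.8% in all, against 7.39% of all genes), and leaving out day-14 replicate 2 ended all 5 falls. Counted anew in each fit, falls numbered 3 without day-28 replicate 1, 1 without day-14 replicate 3 or day-28 replicate 2, and 2 without day-14 replicate 1 or day-28 replicate 3. Such a count can hold a gene outside the 5, as without day-14 replicate 1, where Cspg4 was the 1 of the 5 still called. Rises, counted the same way, numbered 2 without day-14 replicate 2 or day-28 replicate 3.

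**Figure D4:**
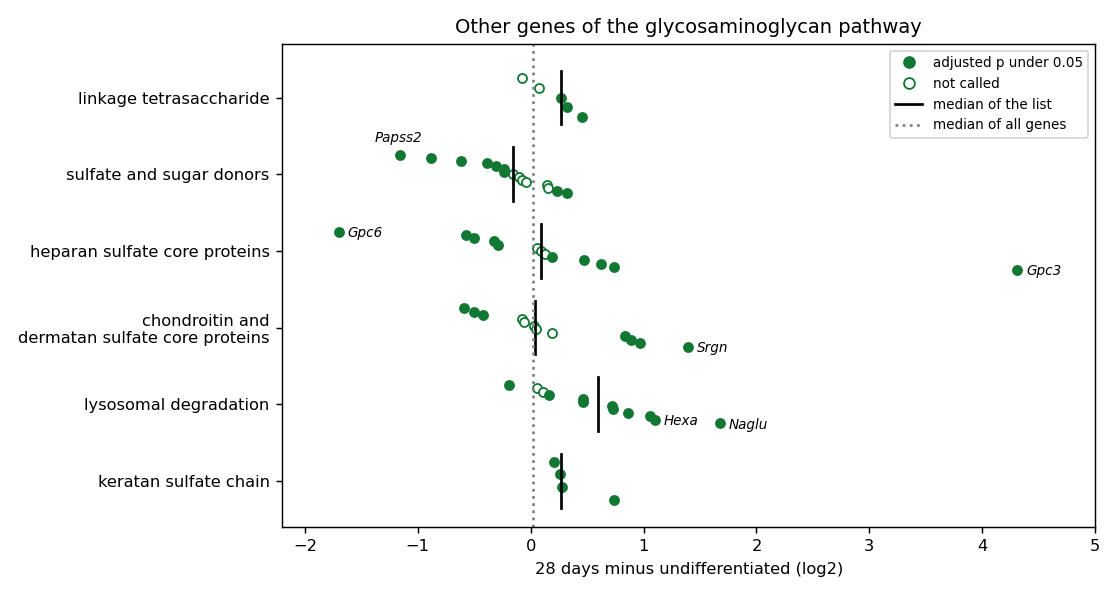
Difference between 28 days and undifferentiated cells in log2 units for the 61 other pathway genes in 6 lists, 1 point a gene, filled where the adjusted p was under 0.05. Black bars are list medians and the dotted line is the median of all genes (0.017). Gpc3 lies farthest right at 4.31 and Gpc6 farthest left at -1.70, and the lysosomal list has the highest median.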

How the data were processed

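The deposited values are log2 signals, 1 per probe set and array. The submitters' processing notes name RMA; its software, version and build are not stated in any source used here, and the log base assumed is RMA's. Each probe set of the deposited log2 table has a median of exactly 0 and so was centred, by a step that no source used here describes. From 15.2% to 28.1% of an array's values are exactly 0, and in 873 genes, 1 of them a member (Chst3), all arrays of a group are equal, which understates their spread. The number of arrays limits the precision.

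Of 33794 probe sets, 23521 carry 1 gene in the platform annotation given for them and 1814 several. Only the first kind was used, averaged to 22180 genes. All 44 members matched RefSeq (GRCm38.p6) by Entrez number, and 0 symbols changed. limma 3.58.1 (R 4.3.3) fitted 1 mean per group over the 9 arrays, with 6 residual and 3.81 prior degrees of freedom. Benjamini-Hochberg adjustment ran over all genes. The fit was tested on simulated data. The labels do not say whether replicates came from separate cultures, and p-values then measure only the spread between these arrays. Members, gene lists and motifs were chosen with earlier results of these data known. Values in every array are given for the 18 members with a called difference of at least 0.5, for Xylt1, and for Papss2 and Gpc3, the last 3 chosen after their values were seen, as were the stromal genes Pdgfra and Cxcl12. Other pathway genes were named as up to 3 called genes per list and direction, with Papss1 beside Papss2. Hyal2 and Arsb were named in addition, for calls that ended when 1 array was left out. Alternatives were the probe set rule, genes with 1 probe set, a renewed quantile normalization, a replicate block, fits of 2 groups, stricter thresholds, robust variances, no tied genes, and each array left out.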

Additional observations from a re-analysis of the deposited data

Results flagged for a closer look

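For 5 enzymes the change from undifferentiated cells differed between 14 and 28 days by the limma test of the difference itself. From 14 to 28 days Hs6st2 changed by -0.76 and Dsel by -0.23 on the log2 scale, while Extl1 changed by 0.59, Chst4 by 0.45 and Hs3st1 by 0.29. The arrays of the 2 times did not overlap for any of the 5, and each moved on in the direction of its first difference. The differences of Hs6st2, Extl1 and Chst4 were called in every fit that left out 1 array, and those of Hs3st1 and Dsel in 2 such fits each. Over all genes 7.39% differed between the times.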

How the results depend on the processing

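Of 57 calls on members, 0 reversed under any alternative. Kept calls numbered 57 of 57 with the most variable probe set and without tied genes, 53 of 53 with only genes of 1 probe set, 56 with robust variances, 55 in fits of 2 groups, 49 at an adjusted p under 0.01, 48 after renewed quantile normalization and 16 against a 1.5-fold change. Calls that the main fit did not have were also gained, 3 of them with the most variable probe set. Such gains numbered 4 without undifferentiated replicate 2, 2 without day-28 replicate 3 and 1 without day-14 replicate 3. Arrays with the same replicate number shared little residual variation (same-number residual correlations -0.139 to 0.0677, 0 of 9 over 0.1), which cannot show whether the cultures were paired. A fit with the replicate block kept 56 calls, losing Chpf at 28 days (adjusted p = 0.0735). limma's test against a 1.5-fold change called 6 members up and 2 down at 14 days, the same numbers at 28 days, and 0 up and 0 down between the times (0 and 1 at an unadjusted p under 0.05). Of the other pathway genes it called 6 up and 2 down at 14 days, 9 and 3 at 28 days, and 1 and 0 between the times (0 down at an unadjusted p under 0.05). Between the times, 1 member fell at an adjusted p under 0.01 and with robust variances. There, 2 other pathway genes rose and 0 fell at an adjusted p under 0.01 (11 fell at an unadjusted p under 0.05), 2 rose among genes with 1 probe set, and 8 fell after renewed quantile normalization. Leaving out 1 array at a time gave 15 to 17 members up and 7 to 10 down at 14 days, 17 to 20 up and 8 to 10 down at 28 days, and 2 to 3 up and 1 to 2 down between the times. For other pathway genes these ranges were 23 to 26 and 11 to 13, 25 to 28 and 14 to 16, and 2 to 6 and 0 to 5. The F test then called 23 to 27 members. The scale of renewed quantile normalization moved many values by over 1.5 times; the cause was not tested. With 3 arrays a group, a small difference that missed the threshold is not shown to be absent.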
